A study of Mus musculus with 14 samples.

Results

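Mouse embryos cultured to the blastocyst in 1 of 2 media systems were compared by expression array: 3 arrays titled HTF/MultiBlast against 3 arrays titled ISM1/ISM2. All 6 arrays were chosen by title, and a probe was kept when its detection p was under 0.01 on at least 2 of the 14 arrays of the series, which held for 10975 of 25697 probes. These gave 8669 units, of which 8025 were genes, each read from its brightest probe, and 644 were probes without a gene symbol. HTF, human tubal fluid, is a simple salt-based embryo medium with glucose, pyruvate and lactate, and the labels call its embryos multiblastocysts. MultiBlast is also the trade name of a blastocyst medium, and the labels do not settle which is meant. ISM1 and ISM2 are commercial sequential media, the first for cleavage and the second for the blastocyst stage, and the labels call these embryos blastocysts. The main test uses no other arrays. The 2 KSOM(aa) arrays and 3 micromanipulation control arrays were normalized with these 6 and set levels side by side. The oviduct arrays enter only the detection filter and some alternative normalizations and fits. Strain, maternal age, fertilisation method, hours of culture, embryos per array and the amino acid content of the media are unstated in the labels. Each array received cRNA from 150 ng of total RNA.

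A blastocyst holds 3 lineages: the trophectoderm, an outer epithelium that forms placenta, the epiblast, which forms the body, and the primitive endoderm, which lines the cavity and lays down basement membrane. Cells short of amino acids, or with unfolded protein in the endoplasmic reticulum, translate more of the transcription factor ATF4. ATF4 pairs with C/EBP proteins on short response elements and switches on amino acid transporters, amino acid synthesis enzymes, tRNA synthetases and stress effectors. When a cell senses little sterol, SREBP factors switch on cholesterol and fatty acid synthesis genes.

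The 6 arrays detected 9065 to 9680 probes each, with median intensities of 118 to 148. Most markers of other tissues were not detected: 0 of 9 cumulus and granulosa markers with a probe were detected on any of the 6 arrays, against 1 of 6 sperm markers (Prm1, on 1 ISM1/ISM2 array), 2 of 8 blood markers (S100a9 on 1 HTF/MultiBlast array and Cd74 on 1 ISM1/ISM2 array), 1 of 8 stromal markers (Des, on all 6) and 2 of 8 oviduct epithelium markers (Wfdc2 on all 6, Foxj1 on 1 ISM1/ISM2 array). Defining genes of the blastocyst lineages, among them Cdx2, Krt8, Nanog, Pou5f1, Gata6 and Sox17, were detected on all 6 arrays. On the normalized log2 scale the summed cumulus and granulosa markers ran from 7.62 to 7.64 in HTF/MultiBlast and from 7.62 to 7.67 in ISM1/ISM2, and the summed stromal markers from 7.59 to 7.76 and from 7.84 to 7.87. The summed oviduct markers, with Wfdc2 among them, lay well above that, from 12.81 to 13.16 and from 12.58 to 13.21.

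Of the 8669 units, 786 passed an adjusted p of 0.05, which is 9.07%. Expression was higher in HTF/MultiBlast for 398 of them (4.59%) and higher in ISM1/ISM2 for 388 (4.48%). The difference was at least 2-fold for 477, with 245 higher in HTF/MultiBlast and 232 higher in ISM1/ISM2. All 786 had arrays that did not overlap between the groups, which was true of 33.2% of all units. The median difference was 0.01 and the median SE of a difference 0.21 on the log2 scale. The grouping by medium held 50.1% of the squared distance between arrays (exact permutation test, upper tail, p = 0.1, the smallest that 3 arrays against 3 allow). That share averaged 20% over the 10 splits of the arrays, and the highest among the other splits was 22.5%. The count depends on the arrays fitted: leaving out HTF/MultiBlast replicate 1, 2 or 3 brought it to 577, 254 or 293. Leaving out ISM1/ISM2 replicate 1 or 2 brought it to 432 or 562, and leaving out replicate 3 of that group raised it to 814. For that reason each gene below whose call ended in a fit of 5 arrays is given with the arrays whose omission ended it. Several genes named at once are given with the arrays they share. Each case also gives the highest adjusted p. The carriers named only under the last heading are given without these fits.

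**Figure D1:**
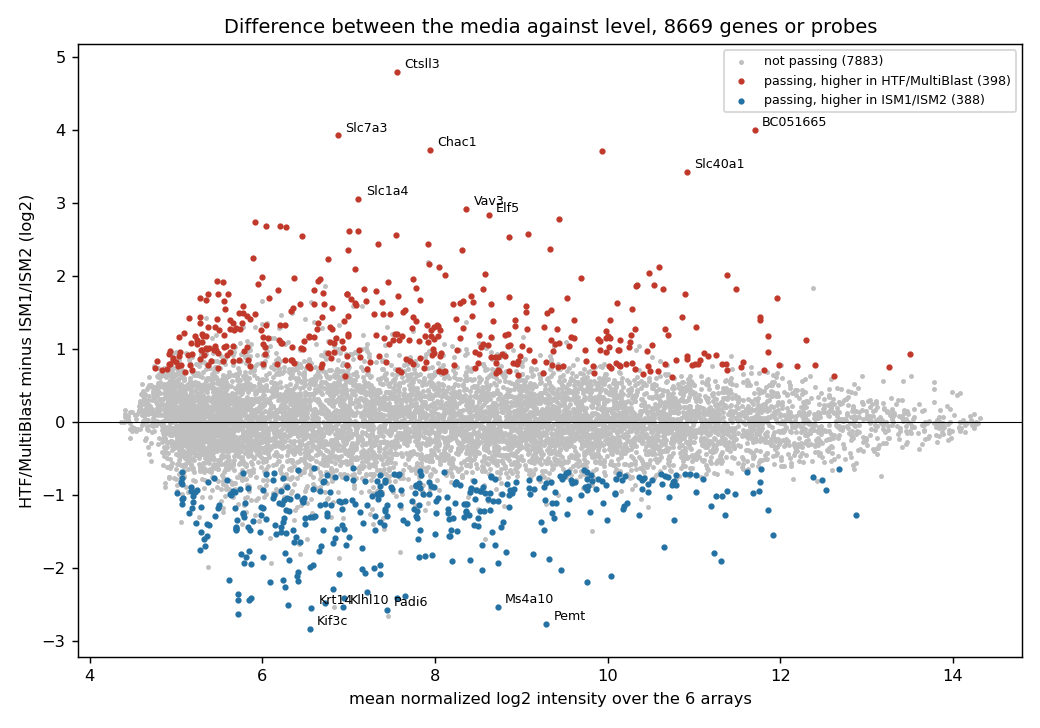
Difference between the media (HTF/MultiBlast minus ISM1/ISM2, log2) against the mean normalized log2 intensity over the 6 arrays, 1 point for each of 8669 genes or probes. The 398 red points passed with a higher level in HTF/MultiBlast and the 388 blue points with a higher level in ISM1/ISM2; the largest differences, Ctsll3 and BC051665, were 4.80 and 4.0.

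The genes with the largest differences were a pair of cathepsin L-like protease genes that lie next to each other on the mouse genome. Ctsll3 read 8.57, 10.86 and 10.47 in HTF/MultiBlast and 4.35, 5.77 and 5.38 in ISM1/ISM2, where 1 of 3 arrays detected it. Its neighbour BC051665 read 13.35, 14.06 and 13.70 against 8.17, 10.66 and 10.29. All HTF/MultiBlast arrays were above all ISM1/ISM2 arrays for both, by 4.80 ± 0.59 (SE, adjusted p = 0.00366) for Ctsll3 and 4.0 ± 0.57 (adjusted p = 0.00653) for BC051665. Members of this family are similar in sequence, and whether their probes share signal was not tested. The third measured gene of the family did not pass.

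Slc40a1, which encodes ferroportin, the iron exporter of the cell membrane, read 12.36, 12.85 and 12.69 in HTF/MultiBlast and 8.91, 8.89 and 9.81 in ISM1/ISM2. The groups were far apart, with a difference of 3.43 ± 0.28, or 10.8-fold (adjusted p = 0.00111). Among 11 measured metallothionein and metal transport genes, 3 passed (27.3% against 9.07% of all units). Beside Slc40a1 these were the zinc transporters Slc39a10 (0.88, adjusted p = 0.029) and Slc39a4 (−1.21, adjusted p = 0.00524). The median was −0.24, or −0.10 without ISM1/ISM2 replicate 1. Of the 6 fits without 1 array, Slc39a10 passed only in that without ISM1/ISM2 replicate 3, with an adjusted p of up to 0.106 without HTF/MultiBlast replicate 2. The metallothionein Mt2 read 10.40, 9.89 and 9.89 in HTF/MultiBlast and 11.07, 10.12 and 10.86 in ISM1/ISM2, and its groups overlapped.

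Other genes with much higher levels in HTF/MultiBlast were transcription factors, signalling genes and a growth factor. Vav3, a guanine nucleotide exchange factor, read 9.47, 10.36 and 9.64 against 6.39, 7.68 and 6.65 (difference 2.92 ± 0.36, adjusted p = 0.00381). Vegfa, the vascular growth factor, read 7.73, 9.30 and 8.23 against 5.41, 5.95 and 6.05 (2.62 ± 0.38, adjusted p = 0.00703). A dimmer Vegfa probe, detected on 1 of the 6 arrays, differed by 0.56. The homeobox genes Irx2 and Irx3 both passed: Irx2 was at background on all ISM1/ISM2 arrays and at least 3.64-fold higher in HTF/MultiBlast (adjusted p = 0.000368), and Irx3 differed by 2.56 (adjusted p = 0.00303). Fhl1, a LIM domain protein, exceeded its ISM1/ISM2 level by at least 4.41-fold (adjusted p = 0.00205), and its other probe differed by 2.45. The open reading frame gene 2510009E07Rik differed by 2.57 (adjusted p = 0.00182). Fam111a, a protease that acts at replication forks, differed by 2.62 (adjusted p = 0.00934) and did not pass without HTF/MultiBlast replicate 2 (adjusted p = 0.051).

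On the ISM1/ISM2 side the largest differences included a phospholipid enzyme, genes of the oocyte and germ line, and immune genes. Pemt, which methylates phosphatidylethanolamine to phosphatidylcholine, read 8.01, 7.92 and 7.78 in HTF/MultiBlast and 10.83, 10.40 and 10.78 in ISM1/ISM2. The replicates of each group lay close together, and the difference was −2.77 ± 0.18, or 6.8-fold (adjusted p = 0.000506). Ms4a10, a membrane-spanning protein, differed by −2.53 ± 0.17 (adjusted p = 0.000506), Nin, a centrosome protein, by −2.41 (adjusted p = 0.00134), and the bicarbonate transporter Slc4a8 by −2.49 (adjusted p = 0.00428). Klhl10, best known from the testis, differed by −2.54 (adjusted p = 0.00205). Mlkl, the effector of necroptosis, differed by −2.51 (adjusted p = 0.00836) and Masp2, a complement protease, by −2.32 (adjusted p = 0.00205), and their dimmer probes differed by −1.03 and −1.62. Slc25a41 and Bex6 were at background on all HTF/MultiBlast arrays and at least 3.40-fold (adjusted p = 0.000506) and 3.02-fold (adjusted p = 0.00906) higher in ISM1/ISM2. Kif3c, a kinesin, differed by −2.83 (adjusted p = 0.0101) and did not pass without HTF/MultiBlast replicate 2 (adjusted p = 0.0565). Krt14, a keratin of stratified epithelium, differed by −2.54 (adjusted p = 0.0355) but read 6.74 in HTF/MultiBlast replicate 1 and 4.55 and 4.59 in the other two, and did not pass without HTF/MultiBlast replicate 2 or 3 or ISM1/ISM2 replicate 1 or 3 (adjusted p up to 0.137).

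Of 15 measured amino acid transporters, which bring amino acids into the cell, 5 passed and all 5 were higher in HTF/MultiBlast. This is 33.3% against 9.07% of all units, and the median over the 15 was 1.11 against 0.01, or 0.74 without HTF/MultiBlast replicate 2. Slc7a3, a carrier of arginine and lysine, read 8.56, 9.56 and 8.40 in HTF/MultiBlast and 4.68, 5.26 and 4.80 in ISM1/ISM2. It was not detected on any ISM1/ISM2 array, so its level was at least 10.8-fold higher in HTF/MultiBlast (adjusted p = 0.00111). Slc1a4, a carrier of alanine, serine and cysteine, read 8.37, 9.05 and 8.51 against 5.66, 5.84 and 5.25, a difference of 3.06 ± 0.24 with no overlap (adjusted p = 0.00111). Slc38a2, a sodium-coupled carrier of small neutral amino acids, read 9.10, 9.49 and 8.81 against 6.64, 6.74 and 6.72 (2.44 ± 0.20, adjusted p = 0.0013). One of its other probes differed by 2.26 and another by −0.03, each detected on 3 of the 6 arrays, so the probes of this gene disagree. Slc7a5, the leucine carrier LAT1, read 10.07, 11.28 and 10.70 against 9.11, 8.45 and 8.56 (1.98 ± 0.32, adjusted p = 0.00914). Its partner chain Slc3a2 read 9.31, 9.96 and 9.03 against 8.89, 8.85 and 8.69; the arrays did not overlap, and the difference of 0.63 did not pass (adjusted p = 0.142). The fifth, Slc38a7, differed by 1.11 (adjusted p = 0.0205) and did not pass without HTF/MultiBlast replicate 2 or 3 or ISM1/ISM2 replicate 1, where the adjusted p reached 0.0782. Slc7a11, the cystine carrier, had a probe that did not meet the detection filter.

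Enzymes that make amino acids and their one-carbon units divided into a few that differed and a larger number that did not pass. Of 18 measured, 4 passed (22.2% against 9.07% of all units), all higher in HTF/MultiBlast. The median was 0.16, or 0.077 with genes at background set to their bound. It was 0.03 without HTF/MultiBlast replicate 2, 0.08 without ISM1/ISM2 replicate 3 and 0.28 without HTF/MultiBlast replicate 1. Asns, asparagine synthetase, read 12.64, 12.99 and 12.80 in HTF/MultiBlast and 11.26, 10.99 and 11.08 in ISM1/ISM2. The difference was 1.70 ± 0.17 (adjusted p = 0.00221); a further probe differed by 2.14, and an undetected one by 0.46. Mthfd2, a mitochondrial folate enzyme, read 8.74, 9.42 and 9.23 against 7.31, 7.02 and 7.0 (2.02 ± 0.22, adjusted p = 0.00259). Aldh18a1, which starts proline synthesis, read 8.43, 9.16 and 8.58 against 7.17, 6.25 and 6.87 (1.96 ± 0.28, adjusted p = 0.00703). Both were higher on every HTF/MultiBlast array. Shmt2, the mitochondrial serine hydroxymethyltransferase, differed by 1.12 (adjusted p = 0.0191) and did not pass without HTF/MultiBlast replicate 2 or 3, where the adjusted p reached 0.0802. Psat1, a serine synthesis enzyme, differed by 0.25 (95% interval −0.13 to 0.62, adjusted p = 0.369).

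Among 17 measured factors and effectors of the ATF4 response, 5 passed (29.4% against 9.07% of all units), all higher in HTF/MultiBlast. Of the 17 differences, 16 were positive, and the median was 0.68, or 0.63 with bounds. Chac1, which degrades glutathione, read 9.68, 10.16 and 9.56 against 7.01, 5.23 and 5.99, a difference of 3.73 ± 0.41 with no overlap (adjusted p = 0.00264). Nupr1, a small stress-induced chromatin protein, was at background in ISM1/ISM2 and at least 3.90-fold higher in HTF/MultiBlast (adjusted p = 0.00338). Herpud1, which serves the removal of misfolded endoplasmic reticulum proteins, read 11.17, 12.02 and 11.31 against 9.50, 9.39 and 9.49 (2.04 ± 0.24, adjusted p = 0.00307), and its other probe differed by 2.13. Jdp2, an AP-1 family repressor, differed by 1.79 (adjusted p = 0.0121). Atf5, a relative of ATF4, differed by 2.36 (adjusted p = 0.0207) and did not pass without HTF/MultiBlast replicate 3 or ISM1/ISM2 replicate 2, where the adjusted p reached 0.0758. The mRNA of Atf4 itself read 6.10, 6.71 and 6.70 against 5.55, 5.80 and 6.14; the groups overlapped, and the difference of 0.68 did not pass (95% interval 0.14 to 1.21, adjusted p = 0.108). Ddit3, the stress factor CHOP, differed by 0.65 and did not pass (adjusted p = 0.23), and Trib3 did not meet the detection filter.

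The tRNA synthetases, which charge tRNAs with amino acids, gave 2 passing genes of 30, a share of 6.67% that is under the 9.07% of all units. Nars, for asparagine, differed by 1.27 ± 0.18 (adjusted p = 0.00596). Lars, for leucine, differed by 1.03 (adjusted p = 0.0356) and of the 6 fits without 1 array passed only in that without HTF/MultiBlast replicate 1, with an adjusted p of up to 0.119 without HTF/MultiBlast replicate 2. Of the 30, 21 were higher in HTF/MultiBlast, with a median of 0.29, which ran from 0.14 without ISM1/ISM2 replicate 1 to 0.46 without ISM1/ISM2 replicate 2 and 0.45 without HTF/MultiBlast replicate 1. In the unfolded protein response list, 2 of 15 passed (13.3%), Herpud1 and Xbp1 (0.94, adjusted p = 0.0356, passing without ISM1/ISM2 replicate 3 but in no other fit of 5 arrays, where it reached 0.104). The chaperone Hspa5, a standard readout of that response, read 9.03, 9.82 and 10.02 against 9.04, 9.30 and 10.09 and overlapped fully.

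**Figure D2:**
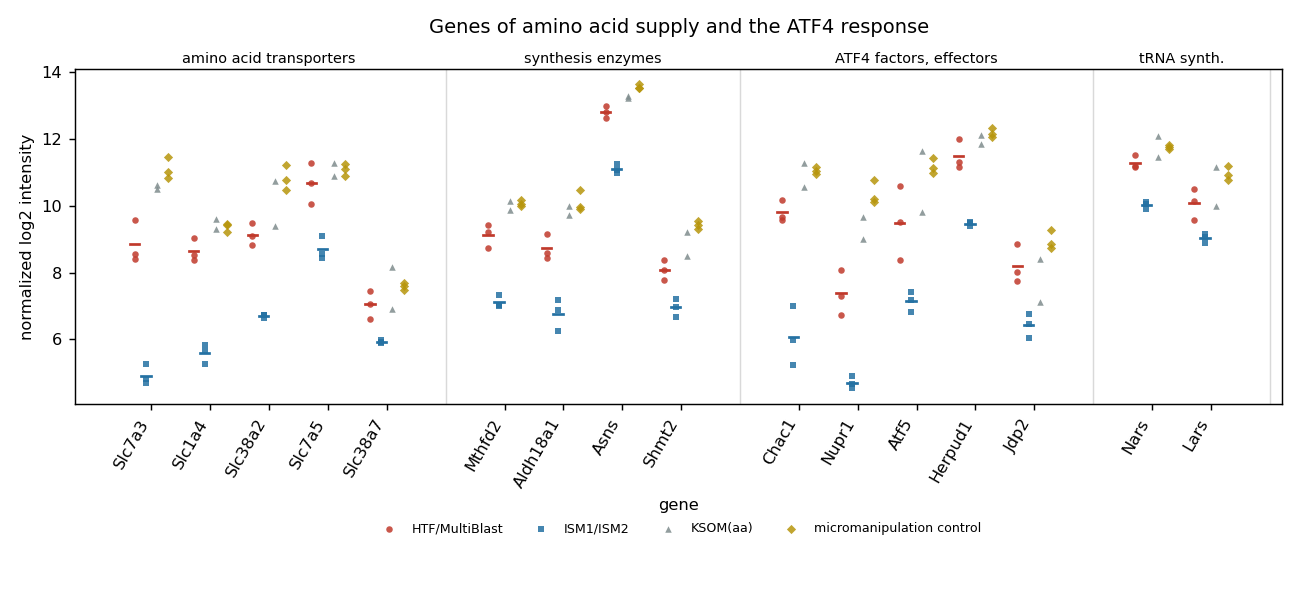
Normalized log2 intensity of each array for the passing genes of the amino acid and ATF4 lists, with bars at the HTF/MultiBlast and ISM1/ISM2 means. The ISM1/ISM2 arrays are lowest for each gene; for Slc7a3 they read 4.68 to 5.26, HTF/MultiBlast 8.40 to 9.56 and micromanipulation control 10.84 to 11.45.

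Promoters of these genes were searched for the letters TGATGNAA on both strands, the core of the C/EBP-ATF response element that ATF4 binds, within the 250 bases before each RefSeq start (build GRCm38.p6). The letters occurred before 3.91% of the 27025 genes of the RefSeq promoter table and before 2.49% of the 6622 tested genes found in it. Among the amino acid and ATF4 lists, 66 of 79 measured genes had a promoter there and 11 of them held the letters (16.7%). Of 12 passing genes with a promoter, 5 held them (41.7%): Asns, Chac1, Herpud1, Jdp2 and Nupr1. Of 54 with a promoter that did not pass, 6 held them (11.1%): Aars, Gars, Got1, Slc7a7, Tars and Vldlr. The differences of these genes ran from −0.68 for Got1 to 1.14 for Slc7a7. The lists were built largely from genes already known as ATF4 targets, so the shares are a description. The windows of the 5 passing genes that hold the letters are shown. Each is written 5′ to 3′ on the gene's strand, with the matched letters, or their reverse complement, in capitals.
Chac1: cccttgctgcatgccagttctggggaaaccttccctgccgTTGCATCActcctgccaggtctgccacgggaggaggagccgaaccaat
Asns: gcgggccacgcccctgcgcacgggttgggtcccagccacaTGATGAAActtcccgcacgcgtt
Herpud1: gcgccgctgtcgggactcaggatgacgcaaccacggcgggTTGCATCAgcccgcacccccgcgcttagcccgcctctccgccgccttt
Nupr1: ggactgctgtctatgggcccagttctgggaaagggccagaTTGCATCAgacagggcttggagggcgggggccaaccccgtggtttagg
Jdp2: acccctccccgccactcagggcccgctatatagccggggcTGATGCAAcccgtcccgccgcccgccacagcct

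By position, the Chac1 window is chr2:119351009-119351096 on the plus strand, with the match from 193 to 186 bases before the start. The Asns window is chr6:7693210-7693272 on the minus strand, with the match from 23 to 16 bases before the start. The Herpud1 window is chr8:94386277-94386364 on the plus strand, with the match from 112 to 105 bases before the start. The Nupr1 window is chr7:126625533-126625620 on the minus strand, with the match from 110 to 103 bases before the start. The Jdp2 window is chr12:85599343-85599415 on the plus strand, with the match from 33 to 26 bases before the start. Jdp2 has 3 promoters in the table, 1 of which held the letters. The windows of Chac1, Herpud1 and Nupr1 carry the reverse complement TTGCATCA and that of Jdp2 the forward TGATGCAA, while Asns carries TGATGAAA. A match is a description of the letters and not evidence of binding in these embryos.

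Of 18 measured genes of the basement membrane that the primitive endoderm lays down, 9 passed with higher levels in HTF/MultiBlast and 1 with a lower level. Of all units, 4.59% and 4.48% did so. The median of the 18 was 0.81, and it ran from 0.46 to 1.44 across the alternatives. Without HTF/MultiBlast replicate 2 or without replicate 3, 6 genes passed with higher levels. The chains of the laminin trimer that the early embryo makes first all passed. Lama1 read 9.56, 10.41 and 10.39 in HTF/MultiBlast and 7.42, 7.50 and 7.86 in ISM1/ISM2. Lamb1 read 9.34, 8.86 and 9.10 against 7.25, 7.52 and 7.64. Lamc1 read 7.54, 7.46 and 7.75 against 5.57, 5.76 and 6.14. No array of one group reached the other for any chain, with differences of 2.53 ± 0.26 (adjusted p = 0.00223), 1.63 ± 0.20 (adjusted p = 0.00348) and 1.76 ± 0.20 (adjusted p = 0.00289).

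The other matrix genes of the list did not all run one way. Sparc, a collagen-binding matrix protein, differed by 1.54 ± 0.21 (adjusted p = 0.00531). Serpinh1, the collagen chaperone of the endoplasmic reticulum, was at background in ISM1/ISM2 and at least 2.85-fold higher in HTF/MultiBlast (adjusted p = 0.00285). Nid1, which links laminin to collagen IV, differed by 1.62 (adjusted p = 0.00845). Hspg2, the proteoglycan perlecan, lay at least 2.16-fold higher (adjusted p = 0.0114), but did not pass without HTF/MultiBlast replicate 2 or 3, where the adjusted p reached 0.0542. Plod2 (0.84, adjusted p = 0.0269) and Srgn (0.79, adjusted p = 0.0319) kept the call in 1 and 0 of the 6 fits without 1 array, with adjusted p of up to 0.106 and 0.114. Srgn lay near background, with a mean level of 4.93, and its other probe, detected on 0 of the 6 arrays, differed by −0.02. Col4a1, a chain of collagen IV, read 10.37, 9.88 and 10.17 against 9.61, 9.32 and 9.40; its arrays did not overlap, and its difference of 0.70 did not pass (adjusted p = 0.0557). Col4a2, its partner chain, differed by 0.37 (adjusted p = 0.531) and Col18a1, a further collagen, by 0.51 (adjusted p = 0.38). Nid2, the other nidogen, differed by −0.56 (adjusted p = 0.131), and these 3 did not pass. Ctsh, a lysosomal protease, was lower in HTF/MultiBlast (−0.98, adjusted p = 0.0145), not passing without HTF/MultiBlast replicate 2 (adjusted p = 0.0648). In bulk RNA, fewer cells of a type and less RNA per cell cannot be told apart.

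Of 13 measured primitive endoderm factors and uptake receptors, 3 passed with higher levels in HTF/MultiBlast and 1 with a lower level. The passing share was 30.8% against 9.07% of all units, and the median difference was 0.63. That median was 0.38 with 75th percentile scaling, 0.23 with genes at background set to their bound, 0.14 with no filter on detection and 0.29 without ISM1/ISM2 replicate 3. Foxq1, a forkhead factor, read 7.03, 7.32 and 7.05 against 5.36, 5.26 and 6.09 (1.56 ± 0.24, adjusted p = 0.00845). Sox17, an endoderm factor, read 10.09, 9.95 and 9.49 against 8.48, 7.75 and 8.55 (1.58 ± 0.26, adjusted p = 0.0102), and its other probe differed by 1.57. It did not pass without HTF/MultiBlast replicate 2 (adjusted p = 0.0558), which also brought the count of genes higher in HTF/MultiBlast from 3 to 1. Pdgfra, a receptor of the lineage, differed by 1.15 (adjusted p = 0.0449) and passed without ISM1/ISM2 replicate 3 but in no other fit of 5 arrays (adjusted p up to 0.139). The early factor Gata6 read 12.42, 12.30 and 12.02 against 12.16, 11.76 and 12.14 and overlapped; its difference was 0.23 (95% interval −0.22 to 0.67, adjusted p = 0.498). Sox7 was at background on all ISM1/ISM2 arrays and at least 1.11-fold higher in HTF/MultiBlast, and did not pass (adjusted p = 0.0623), and Gata4 did not meet the detection filter. Afp, a yolk sac protein, ran the other way: it was at background in HTF/MultiBlast, read 6.23, 5.09 and 7.17 in ISM1/ISM2 and was at least 1.82-fold higher there (adjusted p = 0.0441), not passing without any one of the HTF/MultiBlast arrays or ISM1/ISM2 replicate 1 (adjusted p up to 0.139).

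Of 21 measured transcription factors of the trophectoderm, 6 passed with higher levels in HTF/MultiBlast and 1 with a lower level. The passing share was 33.3% against 9.07% of all units, and the median was 0.45. Elf5, which keeps trophoblast stem cells in their lineage, read 9.88, 10.24 and 9.98 in HTF/MultiBlast and 6.38, 8.30 and 6.94 in ISM1/ISM2. The ISM1/ISM2 arrays were spread over a wide range but all lay lower, and the difference was 2.83 ± 0.43 (adjusted p = 0.0081), with 2.20 at its other probe. Eomes, a T-box factor of trophoblast stem cells, read 10.70, 11.31 and 10.77 against 8.99, 9.47 and 9.43 (1.63 ± 0.23, adjusted p = 0.0058). Ets2, an ETS factor of the same cells, differed by 1.25 ± 0.19 (adjusted p = 0.00845). Elf3 (0.96, adjusted p = 0.0227), Grhl1 (1.39, adjusted p = 0.0291) and Gata2 (0.80, adjusted p = 0.0321) passed over the 6 arrays and not without HTF/MultiBlast replicate 2 or 3 or ISM1/ISM2 replicate 1, with adjusted p of up to 0.121, which brought the count from 6 to 3. Sox15 was lower in HTF/MultiBlast (−1.04, adjusted p = 0.0108), not passing without HTF/MultiBlast replicate 2 (adjusted p = 0.054). Cdx2, which specifies the lineage, read 13.01, 12.74 and 12.56 against 12.40, 12.71 and 12.24; the groups overlapped, and the difference was 0.32 (95% interval −0.14 to 0.78, adjusted p = 0.344). Gata3 differed by 0.60 (adjusted p = 0.155) and Tfap2c by 0.18 (adjusted p = 0.509), and neither passed.

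Among 27 measured keratins, junction and transport genes of the trophectoderm, 6 passed with higher levels in HTF/MultiBlast and 1 with a lower level. This is 25.9% against 9.07% of all units, and the median was 0.13. Aqp8, a water channel, differed by 1.76 ± 0.20 (adjusted p = 0.00285), Bex1, an X-linked adaptor, by 1.82 ± 0.27 (adjusted p = 0.00724), and Fxyd4, a modulator of the sodium pump, by −1.22 ± 0.17 (adjusted p = 0.00531). The other 4, Slc9a3r1, Krt19, Aqp3 and Atp1b1, differed by 0.78 to 1.16 and did not pass without HTF/MultiBlast replicate 2 or 3 or ISM1/ISM2 replicate 1, with adjusted p of up to 0.129, which left 2 higher genes in the list. The keratins Krt8 and Krt18, which form the filaments of this epithelium, differed by −0.02 (95% interval −0.46 to 0.42) and −0.31 (−0.91 to 0.29) and did not pass.

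In the epiblast and pluripotency list, 6 of 23 measured genes passed (26.1% against 9.07% of all units), all higher in HTF/MultiBlast. The median was 0.48, or 0.38 with bounds, but 1 gene passed without HTF/MultiBlast replicate 2 or without replicate 3. Dusp6, a phosphatase induced by FGF and ERK signalling, read 12.17, 12.73 and 12.27 against 10.16, 10.54 and 10.42 (2.02 ± 0.21, adjusted p = 0.00221), and its other probe differed by 2.63. The other 5, Tcl1, Tbx3, Tdgf1, Klf5 and Klf4, differed by 0.81 to 1.40. They lost the call without HTF/MultiBlast replicate 2 or 3 or ISM1/ISM2 replicate 2, with adjusted p of up to 0.147. The core factors did not pass: Pou5f1 differed by −0.38 (95% interval −0.85 to 0.08, adjusted p = 0.264), Nanog by −0.26 (−0.69 to 0.18, adjusted p = 0.432) and Sox2 by 0.95 (0.32 to 1.58, adjusted p = 0.0647). Sox2 read 7.17, 6.51 and 6.21 against 5.98, 5.38 and 5.68 without overlap. Of 18 genes of Nodal, Lefty and BMP signalling, 1 passed over the 6 arrays (5.56%), Tdgf1.

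**Figure D3:**
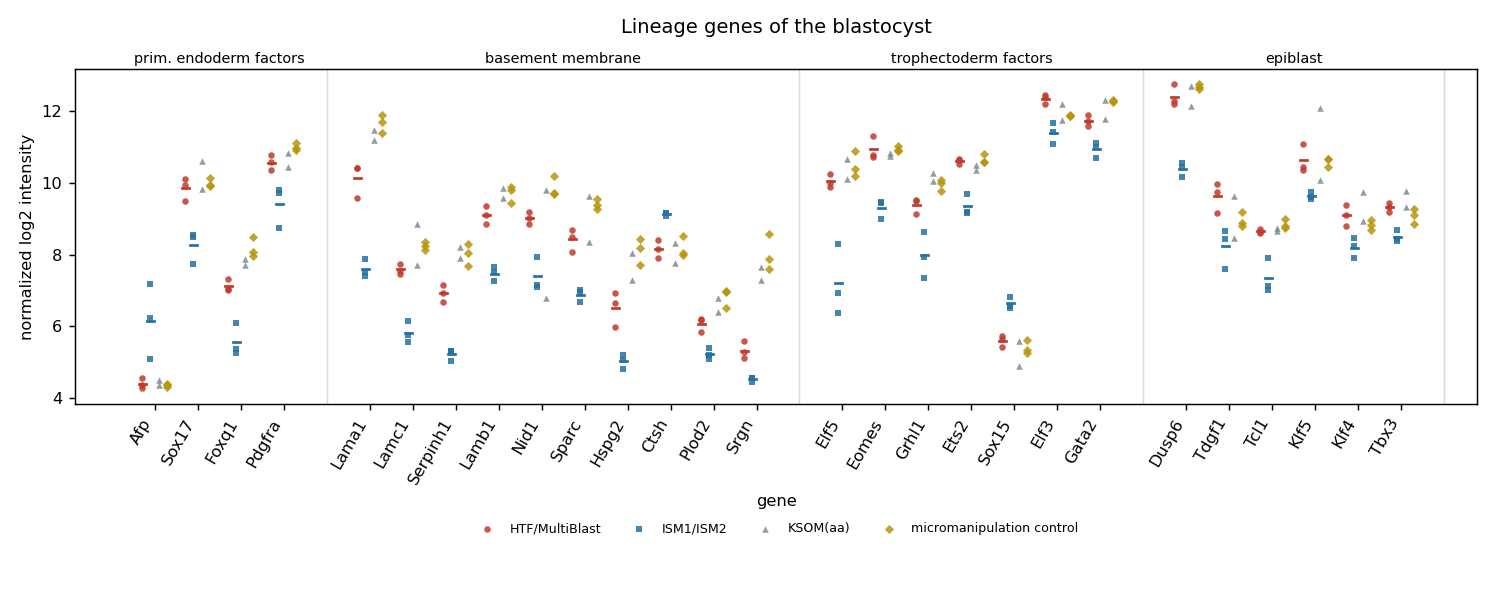
Normalized log2 intensity of each array for the passing genes of the primitive endoderm, trophectoderm factor and epiblast lists, with bars at the HTF/MultiBlast and ISM1/ISM2 means. HTF/MultiBlast and ISM1/ISM2 do not overlap for any gene shown; Lama1 read 9.56 to 10.41 against 7.42 to 7.86, and KSOM(aa) and control arrays read higher still.

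Of 25 measured imprinted genes, 5 passed with higher levels in HTF/MultiBlast and 1 with a lower level, or 24% against 9.07% of all units. The median was 0.14, or 0.25 without HTF/MultiBlast replicate 3 and 0.21 without ISM1/ISM2 replicate 2. Phlda2, a maternally expressed restrainer of placental growth, read 11.59, 11.76 and 11.61 in HTF/MultiBlast and 10.21, 9.19 and 9.18 in ISM1/ISM2. The difference was 2.12 ± 0.28 (adjusted p = 0.00492), and all KSOM(aa) and control arrays, at 7.73 to 9.54, lay below HTF/MultiBlast as well. Igf2, the paternally expressed fetal growth factor, read 11.68, 11.42 and 11.56 against 9.94, 10.06 and 9.21 (1.82 ± 0.24, adjusted p = 0.00493). Grb10, an adaptor that dampens insulin and IGF receptor signalling, read 9.54, 9.83 and 9.76 against 8.18, 8.40 and 7.42 (1.71 ± 0.26, adjusted p = 0.00833). Mkrn3 (1.61, adjusted p = 0.0234), Sfmbt2 (1.08, adjusted p = 0.0295) and Impact (−1.21, adjusted p = 0.0297) each lost the call without HTF/MultiBlast replicate 2 and without replicate 3, with adjusted p of up to 0.111, which left 3 higher genes. Mest differed by −0.72 (adjusted p = 0.181) and Cdkn1c, a restrainer of growth, by −0.29 (adjusted p = 0.558), and neither passed. In the DNA methylation list, limma gave 0 passing genes of 11, with 5 at an unadjusted p under 0.05. Of all 8669 units, 2376 had an unadjusted p under 0.05. Of the 11 differences, 10 were positive and 1 negative, with a median of 0.43. Dnmt3b differed by 0.57 (adjusted p = 0.0719). Xist, the RNA of the inactive X chromosome, differed by 0.52 (adjusted p = 0.141) and the Y-linked Eif2s3y by −0.41 (adjusted p = 0.518), and both RNAs were detected on all 6 arrays. The third measured sex-linked marker, the Y-linked Uty, ran opposite to Eif2s3y, at 0.29. Uty was detected on 3 HTF/MultiBlast arrays and 1 ISM1/ISM2 array, and none of the 3 markers passed.

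Of 18 measured cholesterol synthesis genes, 5 passed with higher levels in ISM1/ISM2 and 1 with a lower level, or 33.3% against 9.07% of all units. Of the 18 differences, 16 were negative, and the median was −0.73, or −0.70 with bounds. Ebp, the sterol isomerase, read 10.15, 10.48 and 10.46 in HTF/MultiBlast and 12.35, 12.13 and 12.32 in ISM1/ISM2, a difference of −1.90 ± 0.17 without overlap (adjusted p = 0.00182). Insig1, an SREBP target that holds SREBP in the endoplasmic reticulum, read 7.52, 7.62 and 7.53 against 9.19, 8.60 and 8.81 (−1.31 ± 0.19, adjusted p = 0.00767). One of its other probes differed by −1.37 and another by −0.07. Insig2, which does the same work without being an SREBP target, ran the opposite way, at 8.61, 8.25 and 8.55 against 7.03, 7.44 and 6.79 (1.38 ± 0.21, adjusted p = 0.00845), with 0.93 at its other probe. Fdps (−0.79, adjusted p = 0.0295), Tm7sf2 (−0.70, adjusted p = 0.0346) and Lss (−1.11, adjusted p = 0.0456) lost the call without HTF/MultiBlast replicate 1, 2 or 3 or ISM1/ISM2 replicate 1, with adjusted p of up to 0.148, which left 2 genes higher in ISM1/ISM2, while 7 passed without ISM1/ISM2 replicate 2. Sqle differed by −0.40 (95% interval −1.08 to 0.28, adjusted p = 0.425).

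Fatty acid and lipid synthesis genes gave 2 passing of 19, a share of 10.5% that is near the 9.07% of all units. Both were higher in ISM1/ISM2, and the median was −0.35, or −0.17 without HTF/MultiBlast replicate 1. Fads2, the desaturase that starts long polyunsaturated fatty acid synthesis, was at background on all HTF/MultiBlast arrays and read 7.69, 6.45 and 6.67 in ISM1/ISM2, at least 3.11-fold higher (adjusted p = 0.00381). Scd1, which makes monounsaturated fatty acids, read 10.79, 10.73 and 10.34 against 11.91, 11.47 and 11.96 (−1.16, adjusted p = 0.0134), and did not pass without HTF/MultiBlast replicate 2 or 3, where the adjusted p reached 0.0614. Without ISM1/ISM2 replicate 2, 6 genes of the list passed. In the methionine, betaine and choline list, 3 of 19 passed (15.8%). They were Pemt, described above, the choline carrier Slc44a1 (2.03, adjusted p = 0.0141), and Bhmt2, a homocysteine methyltransferase, at 7.91, 6.60 and 6.64 against 9.14, 8.68 and 8.80 (−1.82, adjusted p = 0.0161). Slc44a1 and Bhmt2 did not pass without HTF/MultiBlast replicate 2 or 3, and Bhmt2 not without ISM1/ISM2 replicate 1, with adjusted p of up to 0.0763. A further Slc44a1 probe differed by 1.85 and another by 0.20. The median of this list, 0.02, changes sign with 75th percentile scaling and without any one of the ISM1/ISM2 arrays.

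Of 30 measured genes of glutathione and antioxidant defence, 6 passed with higher levels in ISM1/ISM2, 2 with higher levels in HTF/MultiBlast and 22 did not pass. The passing share was 26.7% against 9.07% of all units, and the median was −0.53. Without HTF/MultiBlast replicate 2, 1 of the 6 passed. Gpx7, a peroxidase of the endoplasmic reticulum, was at background in HTF/MultiBlast and at least 2.16-fold higher in ISM1/ISM2 (adjusted p = 0.00338). Gsto1, a glutathione transferase, read 12.12, 11.87 and 12.20 against 12.96, 13.12 and 12.90 (−0.93, adjusted p = 0.0145; 0.0667 without HTF/MultiBlast replicate 2). Gulo, the last enzyme of vitamin C synthesis in the mouse, read 8.30, 7.53 and 7.87 against 9.97, 9.36 and 8.89 (−1.51, adjusted p = 0.0207). Srxn1, which repairs oxidised peroxiredoxins, differed by −1.41 (adjusted p = 0.0229), Gpx3 by −1.05 (adjusted p = 0.0314) and Sod1, the cytosolic superoxide dismutase, by −0.65 (adjusted p = 0.0412). These 4 lost the call without HTF/MultiBlast replicate 2 and without replicate 3, with adjusted p of up to 0.139. Chac1 and Ggct, which break glutathione down, were the 2 passing genes higher in HTF/MultiBlast; Ggct differed by 0.74 (adjusted p = 0.0467) and passed in no fit without 1 array (adjusted p up to 0.116).

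Interferon and class I antigen genes gave 5 passing of 19 (26.3% against 9.07% of all units), all higher in ISM1/ISM2. Of the 19 differences, 12 were negative and 7 positive. The median was −0.38, and it ran from −0.57 to −0.02 across the alternatives. Class I genes that did not pass ran both ways: H2-D1 differed by 0.66 (adjusted p = 0.115), H2-K1 by −0.65 (adjusted p = 0.114) and H2-Q7 by −0.66 (adjusted p = 0.0848). Oasl2, an oligoadenylate synthetase-like protein induced by interferon, read 6.72, 5.94 and 6.71 in HTF/MultiBlast and 9.30, 8.31 and 8.91 in ISM1/ISM2. The difference was −2.38 ± 0.31 (adjusted p = 0.00428), and the KSOM(aa) and control arrays read 4.33 to 4.68, below both media. Ifi27 differed by −1.44 ± 0.22 (adjusted p = 0.00845). B2m, the light chain of class I molecules, read 8.46, 7.65 and 8.05 against 9.47, 9.14 and 9.85 (−1.44, adjusted p = 0.0139), Psmb10, an immunoproteasome subunit, differed by −1.09 (adjusted p = 0.021) and Ifi30, a lysosomal thiol reductase, by −0.96 (adjusted p = 0.0297). These 3 did not pass without HTF/MultiBlast replicate 2 or 3, with adjusted p of up to 0.0931, which left 2 genes. The summed blood markers read 7.55 to 7.67 in HTF/MultiBlast and 7.54 to 7.74 in ISM1/ISM2. The one that met the detection filter, S100a9, a neutrophil protein, was detected on 1 of the 6 arrays and passed with a higher level in HTF/MultiBlast (0.84, adjusted p = 0.0208), not passing without HTF/MultiBlast replicate 2 or 3 or ISM1/ISM2 replicate 1 (adjusted p up to 0.0847).

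**Figure D4:**
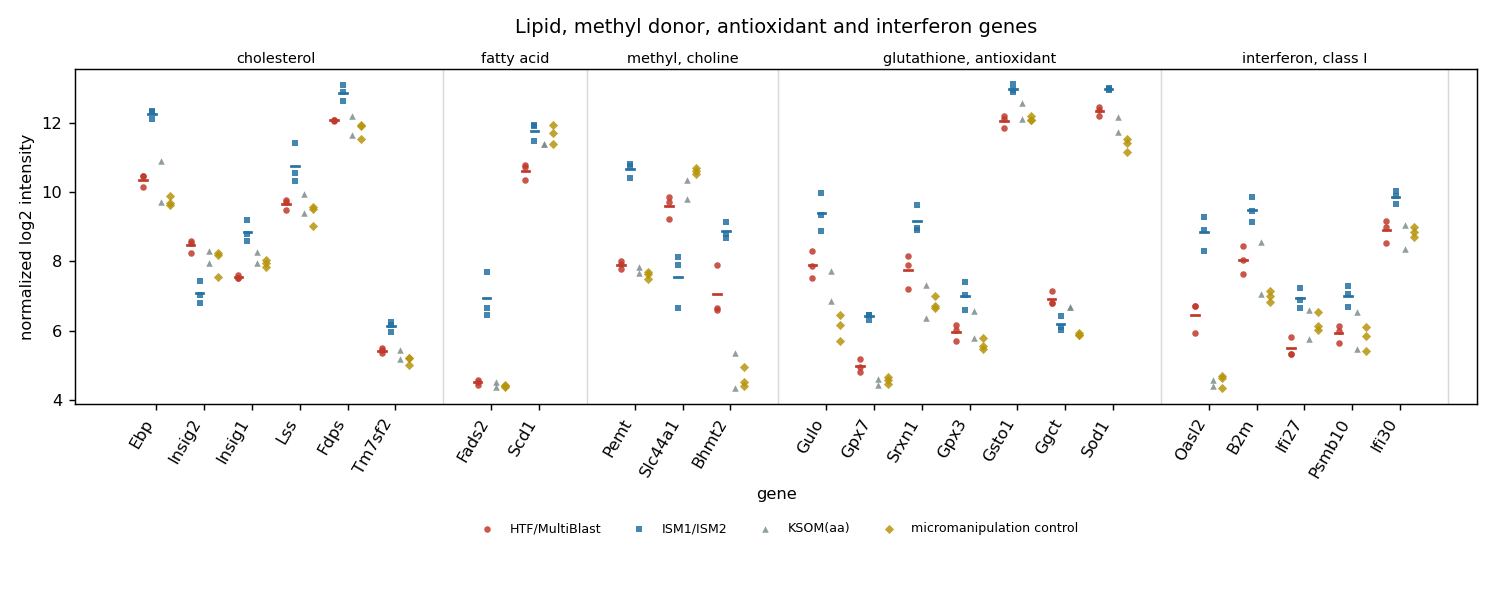
Normalized log2 intensity of each array for the passing genes of the cholesterol, fatty acid, methyl and choline, antioxidant (without Chac1) and interferon lists, with bars at the HTF/MultiBlast and ISM1/ISM2 means. ISM1/ISM2 is higher for each gene except Insig2, Slc44a1 and Ggct; for Pemt the ISM1/ISM2 arrays read 10.40 to 10.83 and the HTF/MultiBlast arrays 7.78 to 8.01.

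Of 7 measured oocyte and maternal-effect genes, 2 passed (28.6% against 9.07% of all units), both with higher levels in ISM1/ISM2. Padi6, a maternal-effect protein of the oocyte lattice, read 6.43, 5.63 and 6.40 against 8.88, 8.24 and 9.06 (−2.58 ± 0.29, adjusted p = 0.0029), and Nlrp14, an oocyte protein, differed by −1.37 ± 0.22 (adjusted p = 0.00894). The median of the 7 was −0.71; omitting ISM1/ISM2 replicate 1 gave −0.36, and omitting replicate 3 of that group −1.18. In the two-cell stage list, 3 of 11 passed (27.3%), all higher in ISM1/ISM2. The median of −0.89 was −0.26 with genes at background set to their bound, and it changed sign to 0.09 without ISM1/ISM2 replicate 3. It was −0.58 without HTF/MultiBlast replicate 2 and −1.39 without ISM1/ISM2 replicate 2. Arg2, the mitochondrial arginase, which is also expressed outside that stage, read 6.61, 5.10 and 5.48 against 8.16, 7.97 and 8.32 (−2.42 ± 0.35, adjusted p = 0.00724). The homeobox gene Obox6 was at background in HTF/MultiBlast and at least 2.45-fold higher in ISM1/ISM2 (adjusted p = 0.00904). Ubtfl1 was at least 1.12-fold higher (adjusted p = 0.0247), not passing without any one of the HTF/MultiBlast arrays or ISM1/ISM2 replicate 2 (adjusted p up to 0.0958). In the germline list, 2 of 18 passed, a share of 11.1% that is near the 9.07% of all units: Tex19.2 at 10.46, 9.83 and 10.70 against 12.40, 12.06 and 11.90 (−1.79 ± 0.25, adjusted p = 0.00653), and Asz1, a protein of the germline piRNA pathway, with −1.48 ± 0.25 (adjusted p = 0.0102). The median of that list was 0.03, and the fits without 1 array took it from −0.11 (ISM1/ISM2 replicate 1 left out) to 0.13 (replicate 3 of that group left out).

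Passing shares of the energy metabolism lists lay on both sides of the 9.07% of all units. Of 17 glycolysis and glucose transport genes, 3 passed (17.6%): Hk2, a hexokinase (0.93, adjusted p = 0.0191), Ldha, the lactate dehydrogenase chain (1.18, adjusted p = 0.023), and Aldoc, an aldolase (−1.33, adjusted p = 0.0229). None of the 3 passed without HTF/MultiBlast replicate 2 or 3, with adjusted p of up to 0.0974. Of 16 hypoxia-linked genes, Vegfa and Ndrg1 passed (12.5%); Ndrg1 differed by 1.12 (adjusted p = 0.0265) and did not pass without any one of the HTF/MultiBlast arrays or ISM1/ISM2 replicate 1 (adjusted p up to 0.107). Of 67 respiratory chain subunits, 57 had negative differences with a median of −0.27, and 5 passed, 7.46% against 9.07% of all units. All 5 were lower in HTF/MultiBlast and 0 of them passed without HTF/MultiBlast replicate 2. That median was −0.46 with 75th percentile scaling, and the median of 52 cytosolic ribosomal protein genes moved from −0.15 to −0.47, and was −0.25 without HTF/MultiBlast replicate 1.

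Against the 9.07% of all units, the remaining lists gave shares on both sides. Limma passed 0 of 25 cell cycle and DNA replication genes (3 at an unadjusted p under 0.05, against 2376 of all 8669 units). It passed 1 of 20 p53 and apoptosis genes (5%), 1 of 16 heat shock chaperones (6.25%) and 1 of 21 lysosome genes (4.76%). The p53 target was Perp, a desmosome protein, which was higher in ISM1/ISM2 (−1.13 ± 0.18, adjusted p = 0.00916). Osmolyte genes gave 3 of 8 (37.5%): Slc38a2, the betaine and GABA carrier Slc6a12 (−1.29 ± 0.21, adjusted p = 0.00974) and the kinase Sgk1 (0.63, adjusted p = 0.046). Sgk1 passed in no fit without 1 array (adjusted p up to 0.146). In the hatching and implantation list 3 of 19 passed (15.8%). The integrin Itgb5 differed by −1.34 ± 0.19 (adjusted p = 0.00591), Timp1, a protease inhibitor, by 1.20 (adjusted p = 0.0141, and 0.0641 if HTF/MultiBlast replicate 3 is left out), and Ptges, a prostaglandin E synthase, by −0.83 (adjusted p = 0.0247). Ptges passed without ISM1/ISM2 replicate 3 but in no other fit of 5 arrays, where the adjusted p reached 0.0949, nor when its probes were averaged (adjusted p = 0.706), so they disagree. Of 18 muscle-type cytoskeleton genes, 3 passed (16.7%). Fhl1 was higher in HTF/MultiBlast, and Tpm2 (−1.37 ± 0.19, adjusted p = 0.00653) and Actn2 (−1.56, adjusted p = 0.0144) were higher in ISM1/ISM2.

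**Figure D5:**
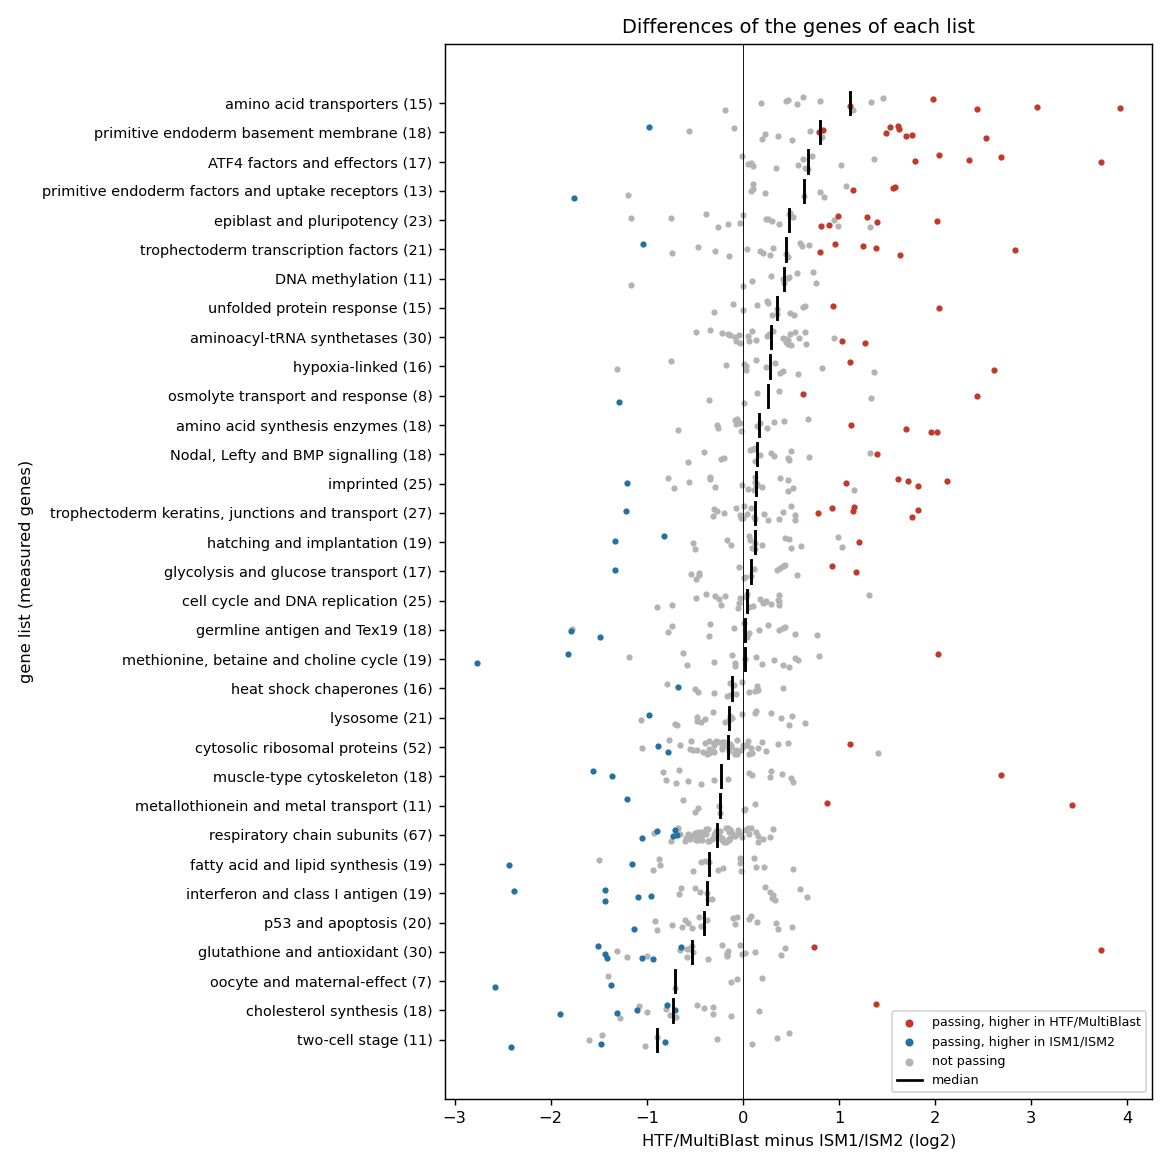
Difference between the media (HTF/MultiBlast minus ISM1/ISM2, log2) for each measured gene of the lists with at least 7 measured genes, sorted by list median. Medians run from −0.89 in the two-cell stage list, which is 0.09 without ISM1/ISM2 replicate 3, to 1.11 in the amino acid transporter list; red and blue points passed and grey points did not.

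Beside the KSOM(aa) and control groups, the passing genes mostly placed ISM1/ISM2 apart. Of the 398 units higher in HTF/MultiBlast, the KSOM(aa) mean and the micromanipulation control mean were both nearer to HTF/MultiBlast for 308 (77.4%) and both nearer to ISM1/ISM2 for 33 (8.29%). Of the 388 units higher in ISM1/ISM2, both were nearer to HTF/MultiBlast for 336 (86.6%) and both nearer to ISM1/ISM2 for 26 (6.7%). The units were chosen by the difference between HTF/MultiBlast and ISM1/ISM2, and these positions were not tested. The same shares over all units are not given here, so these carry no background to be read against. The descriptions give all 3 control arrays the same replicate number, so whether they came from separate samples is not settled. All 5 passing amino acid transporters and all 4 passing synthesis enzymes had KSOM(aa) and control means above the HTF/MultiBlast mean. Slc7a3 means were 4.91 in ISM1/ISM2, 8.84 in HTF/MultiBlast, 10.57 in KSOM(aa) and 11.10 in the control. Pemt means were 7.90 in HTF/MultiBlast, 7.74 in KSOM(aa) and 7.61 in the control, against 10.67 in ISM1/ISM2. Vav3 and Phlda2 were exceptions. Vav3 means were 9.82 in HTF/MultiBlast, 7.74 in KSOM(aa), 7.48 in the control and 6.90 in ISM1/ISM2, and those of Phlda2 were 11.65, 9.26, 8.05 and 9.53. The KSOM(aa) arrays did not always lie together: Slc40a1 read 12.30 and 10.46 and Nid1 read 9.81 and 6.79 on them.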

How the data were processed

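The deposited intensity of a probe averages its beads as exported from BeadStudio 3.2, before any normalization or background correction by the authors, and the deposited detection p-values set each probe against the negative controls of its array, per the file headers and the submitters' processing notes. The authors' deposited log2 values, with lumi and RMA named in the same notes, served as an alternative; their array medians were 2.89 and their centring is not given in the sources used here. Each group has 3 arrays, and what limits the precision was not tested.

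Intensities of the 11 arrays other than oviduct were background-corrected and quantile-normalized to log2 with neqc (limma 3.58.1, R 4.3.3, offset 16). Gene names came from the platform annotation of 23978 probes with 1 symbol and 1719 with none, of whose gene IDs 23962 were in the RefSeq table; no symbol differed. HTF/MultiBlast was tested against ISM1/ISM2 on 6 arrays with lmFit and eBayes, two-sided, with Benjamini-Hochberg adjustment over 8669 units at 0.05. Differences are HTF/MultiBlast minus ISM1/ISM2 means with the model's SE. A gene detected on no array of one group has a fold stated as "at least", set by the lowest detected signal per array. The fit was tested on simulated data.

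The members and gene lists were chosen with earlier results of these data known. Named are the 15 largest passing genes per direction, list members beside their list's count, and lineage, stress and imprinted genes fixed by name; lists were read against the share of all units, with no set test. The series text calls the replicates biological, but no label says that they came from separate cultures, so p-values measure the spread between these samples. Same-numbered replicates did not deviate together (correlations 0.02, 0.05 and −0.02), so the numbers were not taken to pair samples. Alternatives covered normalization, offset, arrays fitted, detection filter, array weights, eBayes options, probe choice, the replicate block and each array left out.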

Additional observations from a re-analysis of the deposited data

How the results depend on the processing

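The number of passing genes or probes, 786, lay between 589 and 948 under other normalizations, offsets, filters, arrays fitted and probe choices, and each passing gene named above kept its direction in all of them. Array weights raised it to 1244, with 598 higher and 646 lower in HTF/MultiBlast, and eBayes with trend and robust options to 1122. The count of differences of at least 2-fold, 477, fell to 307 with an offset of 50 and to 303 with no filter on detection. In the 6 fits without 1 array, which hold fewer samples, the count ran from 254 to 814, that of higher genes from 135 to 400, of lower genes from 119 to 414, and of 2-fold differences from 249 to 537. The numbers pair no samples, and the replicate block gave 713 passing. With 75th percentile scaling 41.5% of the calls were higher in HTF/MultiBlast against 50.6%, and the median of all units was −0.09. Among named genes that did not pass, Tfap2c (0.18) was −0.087 with 75th percentile scaling, Krt8 (−0.02) was 0.010 with array weights and −0.14 to 0.10 without 1 array, Hspa5 (0.14) was −0.075 to 0.45 without 1 array and Cdkn1c (−0.29) was −0.59 to 0.0048 there. Of 131 passing genes that are listed or among the 30 largest, 62 passed in each alternative that tested them. Among genes that passed without any one array, Nid1 did not with 11 arrays in the fit (adjusted p = 0.103), Slc39a4 with 14 (0.0601), and Jdp2 (0.0511) and Actn2 (0.0554) with no filter on detection; the cause was not tested. The slide as a block was not run, since the files used here name no slide or scan. Probes near background limit the folds of 118 passing units to bounds.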

Other observations

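Genes whose symbols begin with Slc, most of them solute carriers, were counted after their values were seen. They gave 27 passing of 170 measured genes (15.9% against 9.07% of all units). Of these, 16 were higher and 11 lower in HTF/MultiBlast, and the median of the 170 was 0.12. The 16 include Slc9a3r1, which is not itself a carrier. Beyond the amino acid, metal and choline carriers described above, those higher in HTF/MultiBlast included Slc22a4, a carrier of ergothioneine and carnitine (2.55, adjusted p = 0.00134), and Slc22a5, the carnitine carrier (0.79, adjusted p = 0.045). Those higher in ISM1/ISM2 included Slc25a1, the mitochondrial citrate carrier that feeds lipid synthesis (−1.68, adjusted p = 0.0253), and Slc13a4, a sulphate carrier (−1.47, adjusted p = 0.00882). Slc26a5 (−1.27, adjusted p = 0.0169) and Slc6a13, a GABA and taurine carrier (−1.28, adjusted p = 0.00845), were others. Slc26a5 was detected on 1 of the 3 HTF/MultiBlast arrays. These genes were named after their values were seen and carry no separate test. Whether their calls held without 1 array is not given here.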
